A study of Mus musculus with 12 samples.

Results

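The miRNAs mmu-miR-192, mmu-miR-194 and mmu-miR-215 come from a pair of small gene clusters, and they were taken here as the probes whose name holds exactly 1 of these miRNAs. Each had 1 probe, so the 3 members were 3 of the 595 mouse miRNA probes on the array, each printed as 4 spots. RNA came from the median liver lobe of male B6C3F1 mice aged 27 to 30 days. The 6 control mice received corn oil, and the 6 others received benzo(a)pyrene (BaP) at 150 mg/kg daily for 3 days, and all were sampled 4 h after the last dose. BaP is a polycyclic aromatic hydrocarbon that liver enzymes convert into products that bind DNA. On each of the 12 arrays, liver RNA in the Hy5 dye was set against the same purchased reference in the Hy3 dye, RNA pooled from 10 mouse tissues, and no array had the dyes exchanged. A collection at 24 h that the design names was not analysed here.

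A microRNA is a short RNA that guides the silencing complex to target transcripts, mainly by pairing through its seed, bases 2 to 8. In mammals, miR-192, miR-194 and miR-215 are known as miRNAs of liver, gut and kidney epithelium, and each cluster is transcribed as a common precursor. In human cells they are also known to be raised by the tumour suppressor p53, which DNA damage activates. The comparisons below address whether these miRNAs set liver apart from the pool of tissues, whether they varied together between livers, and whether they differed after a DNA-damaging compound.

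The mature sequences of RefSeq (build GRCm38.p6, 5′ to 3′) are shown because they set out which members share a seed and which could be hard to separate by hybridisation. Capitals mark the seed.
miR-192-5p, chr19:6264857-6264877, plus strand: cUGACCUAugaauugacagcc
miR-215-5p, chr1:185313610-185313630, plus strand: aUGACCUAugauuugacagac
miR-194-5p, chr1:185313325-185313346 and chr19:6264658-6264679: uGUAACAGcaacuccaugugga
The seed UGACCUA was held by 2 of the 1679 mature names in that table, miR-192-5p and miR-215-5p. The seed GUAACAG belonged to miR-194-5p alone.

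The sequences of miR-192-5p and miR-215-5p were both 21 bases long and were identical at 18 of them (85.7%). Counted from the 5′ end, miR-215-5p differed from miR-192-5p by C1A, A12U and C20A, all outside the seed, which the capitals mark in the lines that follow.
miR-192-5p: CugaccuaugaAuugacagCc
miR-215-5p: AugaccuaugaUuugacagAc
The 2 genes of miR-194 give the same 22-base 5p strand, so a probe for it reads both loci together. Their 3p strands differed at 4 of 22 bases (81.8% identical), by A8G, C19U, U20C and C22G from Mir194-1 to Mir194-2, again marked by capitals.
miR-194-1-3p: ccaguggAgcugcuguuaCUuC
miR-194-2-3p: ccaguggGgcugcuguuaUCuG
The first of these differences lies at base 8, the last base of the seed, so that the 3p strands of the 2 loci do not share a seed.

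On chromosome 19, Mir194-2 (6264643 to 6264728) and Mir192 (6264844 to 6264932) lie 115 bases apart. No other annotated gene overlaps them, and the nearest is Atg2a, 2339 bases from Mir194-2. On chromosome 1, Mir194-1 (185313319 to 185313385) and Mir215 (185313581 to 185313692) lie 195 bases apart, and both overlap the interval of Iars2, the gene of the mitochondrial isoleucyl-tRNA synthetase. The sequences of the array's own probes are not given in the sources used here. The array also carried probes named for the human miR-215, miR-192* and miR-194*, the star marking the other strand of the hairpin.

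Liver signal above background was seen for 166 to 341 of the mouse miRNAs, depending on the array, and for 154 on all 12 arrays. The hepatocyte miRNA miR-122 had a log2 ratio over the pool of 3.70 ± 0.15 (SD, n = 6) in vehicle liver, while the muscle and brain marker lists had 0 of 2 and 0 of 2 members in the tested set. The liver threshold of vehicle 1 and BaP 1, at 1.92 and 2.89 scanner units, lay below the 16.2 to 28.8 of the other 10 arrays. The ratios of the 212 tested miRNAs correlated across miRNAs with those of the other arrays at a mean Pearson r of 0.920 on vehicle 5, against 0.948 to 0.977 elsewhere. Bulk tissue cannot tell fewer cells of a type from less RNA per cell.

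The members split into a pair that stood high in liver and 1 that did not. In vehicle liver, miR-192 was 7.36-fold and miR-194 6.11-fold above the pool, while miR-215 stood at 0.876 of it. Among the 212 mouse miRNAs tested, ordered by their mean vehicle ratio, miR-192 was the 4th, miR-194 the 5th and miR-215 the 120th. Over the 12 arrays these ranks ran from 3 to 6 for miR-192, from 3 to 8 for miR-194 and from 90 to 131 for miR-215, so miR-215 ranked below both others on every array.

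The log2 ratio of miR-192, the member at the chromosome 19 locus, was 3.23, 2.85, 2.98, 2.85, 2.66 and 2.70 on the arrays vehicle 1 to 6. On BaP 1 to 6 it was 3.33, 2.30, 2.98, 2.91, 2.94 and 2.61. The highest value of each group lay on the array numbered 1, the lowest of all was that of BaP 2, and the groups overlapped. The means were 2.88 ± 0.21 (SD, n = 6) in vehicle and 2.85 ± 0.35 (SD, n = 6) in BaP liver, against a median vehicle ratio of -0.09 over the tested miRNAs.

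For miR-194, read from both loci, the log2 ratio was 2.97, 2.39, 2.55, 2.57, 2.54 and 2.65 on vehicle 1 to 6. It was 3.02, 2.44, 2.39, 2.49, 2.80 and 2.52 on BaP 1 to 6. Vehicle 1 and BaP 1 were again the highest and the groups overlapped, with means of 2.61 ± 0.19 and 2.61 ± 0.25 (SD, n = 6 each). The scanner software had flagged 19 of the 48 miR-194 spots as outliers, against 7.12% of all spots. Among them were all 4 on vehicle 1, 2 and 3, so those 3 values rest on flagged spots. On BaP 2 it had flagged 3 of 4, and all 19 lay on vehicle 1 to 3 and BaP 1 to 3. For miR-192 the software had flagged 4 of 48, 3 of them on vehicle 2, and for miR-215 0 of 48.

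For miR-215, the member at the chromosome 1 locus, the log2 ratio was -0.14, -0.20, -0.16, -0.21, -0.25 and -0.19 on vehicle 1 to 6. It was -0.03, -0.21, -0.14, -0.08, -0.16 and -0.16 on BaP 1 to 6. All 12 values were below 0, the groups overlapped, and BaP 1 was the highest. The means were -0.19 ± 0.04 for vehicle and -0.13 ± 0.06 for BaP (SD, n = 6 each). Without vehicle 5 the vehicle means were 2.92 for miR-192, 2.63 for miR-194 and -0.18 for miR-215.

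**Figure D1:**
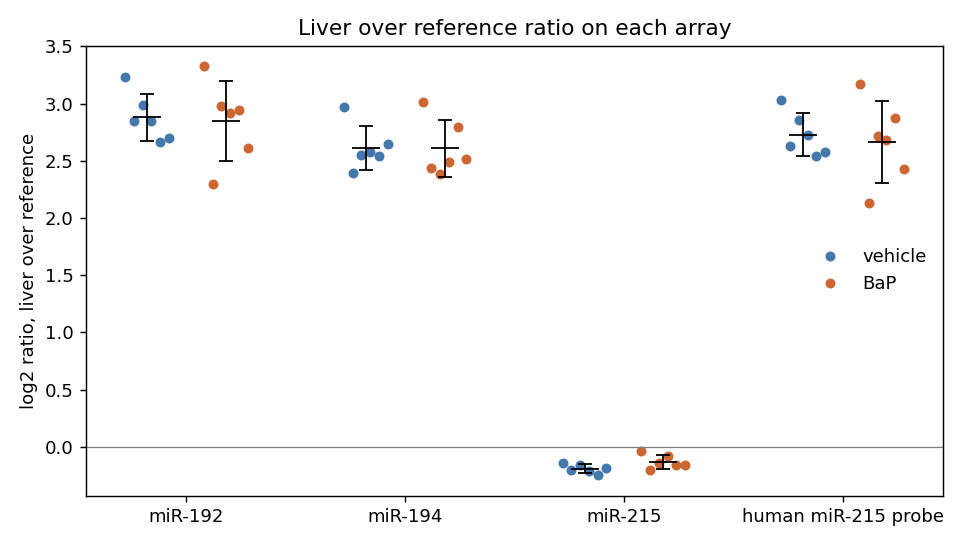
Log2 ratio of liver over reference (vertical axis) for the 3 members and for the probe named for human miR-215, 1 point per array, vehicle in blue and BaP in orange. Horizontal lines are group means and bars 1 SD (n = 6); the points of miR-192, miR-194 and the human probe lie above 2, those of the mouse miR-215 probe between -0.25 and -0.03.

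The ratio of miR-215 is a ratio of dim signals. Its background-subtracted liver intensity, in scanner units, ran from 14.9 to 33.7 over the 12 arrays (median 19.3) and was above background on 9 of them, 4 vehicle and 5 BaP. The 3 arrays without it were vehicle 4, vehicle 6 and BaP 5. In the reference the same probe gave 79.6 to 118. The offset of 50 that is added to both channels pulls the ratio of so dim a probe towards 1. With an offset of 10, its vehicle mean was -0.39 and the median of the tested miRNAs -0.20.

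The level set by the normalization also touched miR-215. Without normalization within arrays its vehicle mean was -0.83, beside a median of -0.91, and with median centring it was -0.68, beside -0.77. It therefore stood slightly below the median of the tested miRNAs as reported and slightly above it in those alternatives. For miR-192 and miR-194 the vehicle means without normalization were 2.02 and 1.63, far above that median.

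For miR-192, the background-subtracted liver intensity ran from 945 to 2478 (median 1283), and the reference intensity from 290.0 to 422. For miR-194 the liver intensity ran from 470 to 1609 (median 772), and the reference intensity from 180 to 340. Neither probe fell to background in liver on any of the 12 arrays. The 4 spots of a probe differed little within an array, with a median SD over the 12 arrays of 0.066 on the log2 scale for miR-192, 0.042 for miR-194 and 0.058 for miR-215.

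**Figure D2:**
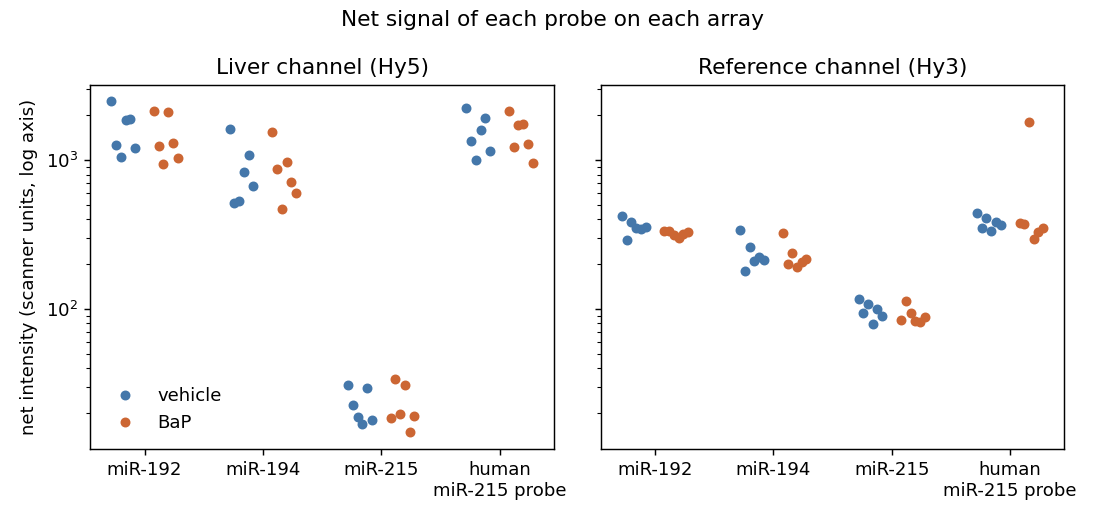
Background-subtracted intensity in scanner units (log axis) of each probe in the liver channel (left) and the reference channel (right), 1 point per array, vehicle in blue and BaP in orange. Liver intensities of the mouse miR-215 probe lie between 14.9 and 33.7, and the human miR-215 probe has 1 reference value of 1800, on BaP 3.

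Among the ratios near those of the members, several did not differ beyond their spread. In vehicle liver miR-193 stood just above miR-192 at 2.96 ± 0.22, a difference of miR-192 minus miR-193 within arrays of -0.08 ± 0.17 (SD, n = 6). Next above was miR-720, now held to be a tRNA fragment, at 3.15 ± 0.19, a difference of -0.27 ± 0.13. Below miR-194 came miR-101b at 2.44 ± 0.40 and miR-184 at 2.37 ± 0.34, with differences of miR-194 minus each of 0.18 ± 0.36 and 0.24 ± 0.32. Around miR-215 lay miR-28, miR-467g, miR-27b and miR-126-5p, from -0.18 to -0.21, all within their spread of it.

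The probe named for human miR-215 gave a different picture from the mouse miR-215 probe. It had log2 ratios of 2.73 ± 0.19 over the vehicle arrays and 2.67 ± 0.36 over the BaP arrays (SD, n = 6 each), and its liver intensity ran from 956 to 2229. Within arrays it lay 2.86 ± 0.24 above the mouse miR-215 probe, with a range over the 12 arrays of 2.34 to 3.21. It lay 0.17 ± 0.06 below miR-192 (human probe minus miR-192, -0.27 to -0.07), and below it on 12 of 12 arrays. Set against miR-194 the difference was 0.09 ± 0.18 and ran from -0.31 to 0.33. The spread of the difference was thus smaller against miR-192 than against miR-194. The mouse miR-215 ratio, compressed by the offset and dim, hardly varied, so the spread against it says nothing of whether both probes varied together. Which RNA it bound was not tested.

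On BaP 3 the reference intensity of the human miR-215 probe was 1800, against 297.5 to 441 on the other arrays. It came from 1 flagged spot of 6158, which did not enter the ratio, while the other 3 spots gave 339 to 358. The probe for human miR-192* stood above background on 12 of 12 liver samples but on 5 of 12 in the reference, with liver intensities of 41.8 to 88.2 and log2 ratios of 1.01 ± 0.13 in vehicle and 0.92 ± 0.12 in BaP liver. The probe for human miR-194* was above background in liver on 1 of 12 arrays and had ratios of 0.15 ± 0.14 and 0.12 ± 0.06.

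None of the 3 members differed between BaP and vehicle liver past the test. The log2 difference BaP minus vehicle was -0.03 for miR-192 (95% limma interval -0.36 to 0.29), -0.0035 for miR-194 (-0.26 to 0.25) and 0.06 for miR-215 (-0.04 to 0.16). As ratios, these intervals run from 0.780 to 1.22 for miR-192, from 0.836 to 1.19 for miR-194 and from 0.973 to 1.12 for miR-215. Changes of a size within these intervals are not excluded by the 6 arrays per group. The limits are not adjusted over the tested miRNAs, so larger changes could also miss the adjusted threshold. The interval of miR-215 is that of a ratio compressed by the offset of 50. Its difference was 0.11 with an offset of 10, 0.12 with loess on mouse probes above background and 0.13 with median centring. It was 0.16 in the liver channel at its 75th percentile and 0.02 there with quantiles. With the scanner software's processed signals it was 0.19, above the upper limit given. The limma adjusted p stayed between 0.777 and 0.993 in these 6 alternatives.

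By limma with Benjamini-Hochberg adjustment over 212 miRNAs, the adjusted p was 0.990 for miR-192, 0.992 for miR-194 and 0.990 for miR-215. Of the 3 members 0 were past an adjusted p of 0.05, as were 0 of the 212 tested miRNAs (0%). At an unadjusted limma p under 0.05 there were 2 (0.943%), at an exact permutation p under 0.05 there were 3 (1.42%), and in 0 (0%) did the groups not overlap. None of the 3 members was among them. Their own two-sided exact permutation p-values were 0.877, 0.976 and 0.0801, where 0.00216 is the smallest that 924 regroupings allow. Above the vehicle mean lay 4 of 6 BaP arrays for miR-192, 2 of 6 for miR-194 and 5 of 6 for miR-215. Over all tested miRNAs the median difference was 0.01, and 123 of 212 (58.0%) were higher in BaP liver.

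Arrays were scanned on 4 days, each of which held both groups. For miR-192, BaP minus vehicle within the days was 0.09, 0.08, -0.28 and 0.16, so the direction differed between days. For miR-194 the day values were 0.05, 0.01, -0.06 and -0.07, and for miR-215 they were 0.10, 0.03, 0.0044 and 0.15, all above 0. How many of the tested miRNAs kept the same direction on all days was not counted. Day 1 held 1 array of each group. With scan day as a block in limma the differences were -0.03, -0.02 and 0.06, with adjusted p-values of 0.964, 0.924 and 0.856.

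The direction for miR-192 and for miR-194 rested on single arrays. Without BaP 2 the difference of miR-192 was 0.08 and without BaP 1 it was -0.13. That of miR-194 was -0.09 without BaP 1 and 0.07 without vehicle 1. Without vehicle 5, the array least like the others, the differences of miR-192, miR-194 and miR-215 were -0.08, -0.02 and 0.05 (limma adjusted p = 0.988 for each). For miR-215 it lay between 0.04 and 0.08 whichever array was left out, a narrower range than that over the ways of processing (0.02 to 0.19).

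Differences between members within an array cancel what shifts the ratios of both probes by the same amount. The ratio of miR-215, dim and compressed by the offset, hardly varied, so shared shifts need not cancel against it. Over the 12 arrays the SD of miR-192 minus miR-215 was 0.24, close to the 0.28 of miR-192 alone. That of miR-194 minus miR-215 was 0.19, close to the 0.21 of miR-194 alone. The log2 ratio of miR-192 exceeded that of miR-194 by 0.27 ± 0.16 on vehicle arrays and 0.24 ± 0.26 on BaP arrays (SD, n = 6 each), a difference of -0.03 (two-sided exact permutation p = 0.810). It exceeded that of miR-215 by 3.07 ± 0.18 and 2.98 ± 0.30, a difference of -0.10 (exact permutation p = 0.526). For miR-194 over miR-215 the values were 2.80 ± 0.17 and 2.74 ± 0.21, a difference of -0.06 (exact permutation p = 0.574). After Benjamini-Hochberg adjustment over these 3 comparisons each exact p was 0.810. Unequal movement of the members after BaP was therefore not detected, where the comparisons with miR-215 mostly carry the variation of the other member.

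The wider set of miRNAs known to respond to p53 also held no call. Of its 11 miRNAs on the array 9 were tested, 6 of them higher and 3 lower in BaP liver, with 0 past an adjusted p of 0.05. Their median difference was 0.03. Over all tested miRNAs 123 were higher and 89 lower, with a median difference of 0.01. miR-34a, the miRNA best known as a direct p53 target, differed by 0.14 (95% limma interval -0.01 to 0.30). The differences of the 9 ran from the -0.03 of miR-192 to the 0.18 of miR-143. That of miR-143 fell to 0.03 without BaP 2 and to 0.02 with array quality weights, below the 0.13 and 0.09 of miR-34a there. Neither miR-34b-5p nor miR-34c reached the tested set. The star strand miR-34c*, which is not on the list, did, and differed by 0.19 (95% limma interval 0.07 to 0.30). Its limma p was 0.00353 unadjusted and 0.747 adjusted, the smallest adjusted p of all tested miRNAs. Its mean liver intensity in vehicle was 22.9, above background on 4 vehicle and 6 BaP arrays. In vehicle liver, only miR-192 and miR-194 of the 11 listed were at least 2-fold above the pool. At least 2-fold below it were 6, among them the 2 outside the tested set. Of the 212 tested miRNAs ordered by vehicle ratio, those down to the 23rd were that far above the pool and those from the 174th on that far below.

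**Figure D3:**
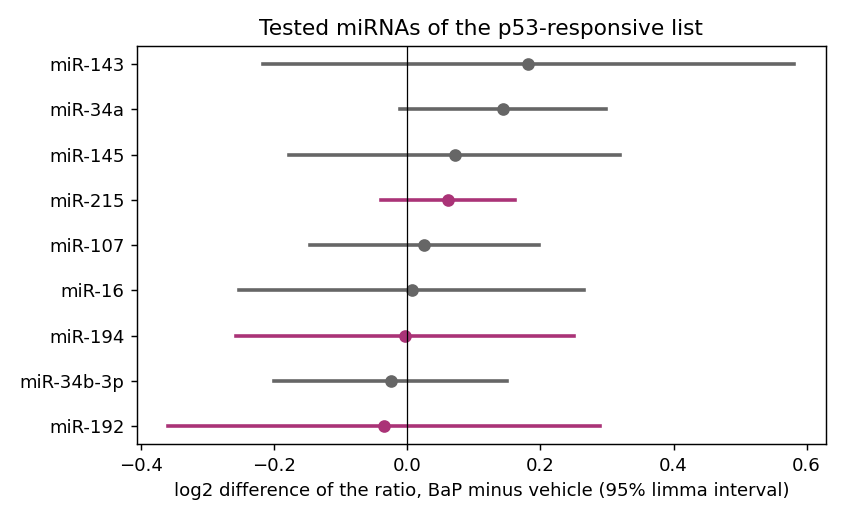
Log2 difference BaP minus vehicle of the liver over reference ratio (horizontal axis) for the 9 tested miRNAs of the p53-responsive set, with 95% limma intervals. The 3 members are in purple and the others in grey; all 9 intervals include 0.

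A liver list and an epithelial list place the members among tissue miRNAs. Of 11 miRNAs known as abundant or enriched in liver, which include miR-192 and miR-194, 11 were tested, 7 were at least 2-fold above the pool in vehicle liver and 0 were 2-fold below. After BaP, 3 of these 11 were higher and 8 lower with a median difference of -0.09, and 0 were past the test. Over all 212 tested miRNAs 123 were higher and 89 lower, with a median difference of 0.01. miR-122 was at 3.82 ± 0.15 in BaP liver, 0.12 above vehicle. Of 8 epithelial miRNAs, such as the miR-200 family of bile duct and gut lining, 5 were at least 2-fold below the pool. Of these 5, 3 lay outside the tested set, and 1 of the 8, miR-31, was 2-fold above the pool at 1.03. Of the 212 tested miRNAs ordered by vehicle ratio, those down to the 23rd were at least 2-fold above the pool. Those from the 174th on were at least 2-fold below it. The summed liver intensity of the epithelial list was 204 to 345 on vehicle arrays and 178 to 417 on BaP arrays.

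Over the 12 arrays, the 3 members varied by different amounts. The SD of the log2 ratio within groups was 0.29 for miR-192, larger than that of 90.1% of the tested miRNAs, and 0.22 for miR-194, larger than 82.5%. For miR-215 it was 0.05, larger than only 0.472%, where the offset and the dim signal also bear on the size of the spread.

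With group means removed, miR-192 and miR-215, the members that share a seed and lie on different chromosomes, had the highest correlation of the 3 pairs as processed here. With loess on mouse probes above background theirs was the lowest, at 0.256 against 0.449 for miR-192 and miR-194 and 0.436 for miR-194 and miR-215. With processed signals it was -0.0505, against 0.515 and -0.539. As reported, Pearson's r over 12 arrays was 0.852 (permutation p = 0.00226) and Spearman's rho 0.748 (permutation p = 0.0128). Adjusted by Benjamini-Hochberg over all 22366 pairs of tested miRNAs, these were 0.0810 and 0.195, which misses the threshold of 0.05. The r stood above that of 98.2% of all pairs. Of the 3 pairs of members 0 passed, beside 238 of the 22366 pairs (1.06%).

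The clustered pairs, whose members come from neighbouring hairpins, had lower values. For miR-192 and miR-194 r was 0.668 (permutation p = 0.0342, adjusted 0.243) and rho 0.406 (p = 0.238, adjusted 0.611), above 90.0% of all pairs in r. For miR-194 and miR-215 r was 0.612 (permutation p = 0.0558, adjusted 0.301) and rho 0.406 (p = 0.227, adjusted 0.599), above 86.6%. Within vehicle arrays the 3 values of r, in the order miR-192 with miR-194, miR-192 with miR-215 and miR-194 with miR-215, were 0.679, 0.860 and 0.632. Within BaP arrays they were 0.671, 0.849 and 0.606. Whether the pairs differed from each other in r was not tested.

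These relations rested in part on 2 arrays, vehicle 1 and BaP 1, which made up scan day 1 and stood high in miR-192 and miR-194. Without the 2 arrays farthest from the median of miR-192, BaP 2 and BaP 1, r fell to 0.474 for miR-192 and miR-194 and to 0.667 for miR-192 and miR-215. Without BaP 1 and vehicle 1, the farthest in miR-194, r between miR-194 and miR-215 was 0.0167. With scan day removed as well as group, the 3 values were 0.330, 0.704 and 0.0828. Leaving out both arrays of scan day 1, an alternative chosen after the data were seen, gave 0.171, 0.699 and 0.0113. Without vehicle 5 they were 0.665, 0.843 and 0.619, and with flagged spots kept 0.436, 0.786 and 0.285. The relations of miR-194 with both other members thus did not hold without scan day 1.

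**Figure D4:**
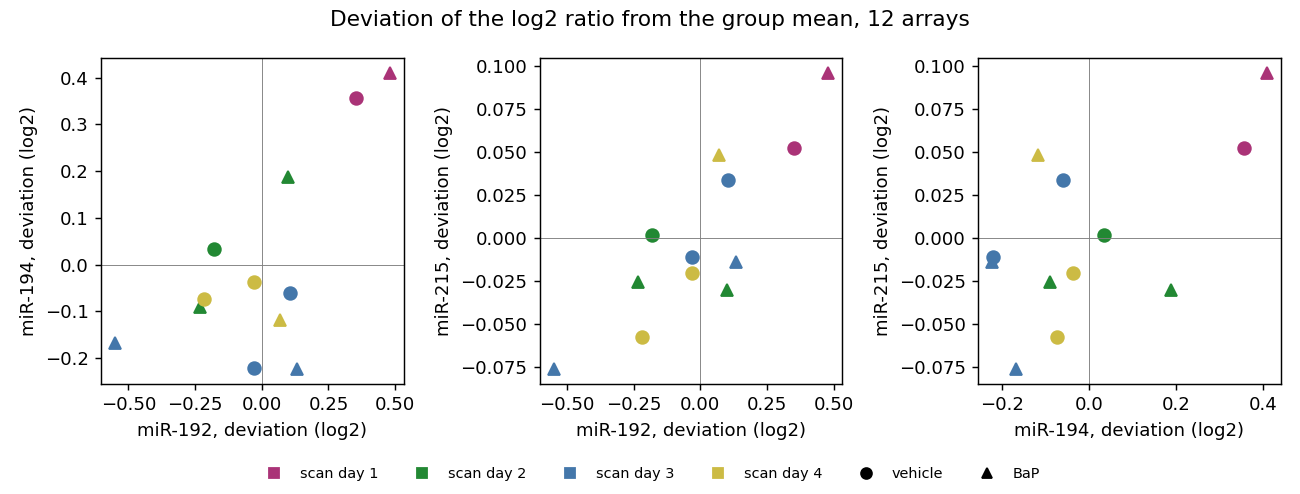
Deviation of the log2 ratio from its group mean for each pair of members, 1 point per array over 12 arrays, coloured by scan day, circles vehicle and triangles BaP. The 2 arrays of scan day 1 lie at the upper right of each panel, and BaP 2 at the far left for miR-192.

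The channel behind the ratio differed between pairs. In the liver channel alone, scaled to its 75th percentile, r was -0.434 for miR-192 and miR-194, 0.284 for miR-192 and miR-215, and -0.382 for miR-194 and miR-215. In the reference channel, which holds the same RNA on all arrays, it was -0.487, 0.794 and -0.345. The r of miR-192 and miR-215 was thus high in the reference channel and low in the liver channel. It stood above that of 39.5% of all pairs in the liver and 92.7% in the reference channel. The median r of all pairs was 0.440 in the liver and 0.244 in the reference channel. For miR-192 and miR-194 the percentiles were 5.54 and 7.61, and for miR-194 and miR-215 they were 7.20 and 13.7. With median centring in place of loess the 3 values were 0.866, 0.915 and 0.876 and past the adjusted threshold, but so were 73.8% of all pairs, whose median r was 0.810. Their percentiles among all pairs were then 64.9, 80.8 and 68.0.

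**Figure D5:**
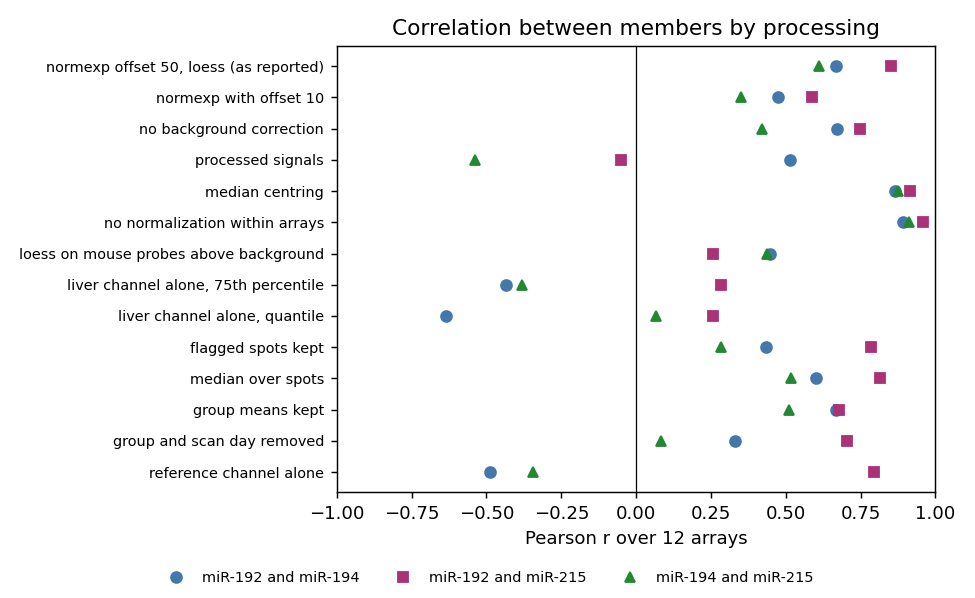
Pearson r over 12 arrays for the 3 pairs of members (horizontal axis) under each way of processing the intensities (rows), circles for miR-192 with miR-194, squares for miR-192 with miR-215 and triangles for miR-194 with miR-215. As reported all 3 lie above 0.6, and with the liver channel scaled to its 75th percentile those of miR-194 lie below 0.

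By Pearson's r of the ratios over the 12 arrays, with group means removed, the miRNAs most like miR-192 were miR-207 (0.948), miR-21 (0.936), miR-29a (0.913), miR-29b (0.878) and miR-15a (0.877). The adjusted permutation p over all pairs was 0.0258, 0.0258, 0.0434, 0.0437 and 0.0674. Most like miR-194 were miR-582-3p (0.944, adjusted permutation p = 0.0320), miR-15a (0.888), miR-365 (0.873), miR-451 (0.872) and miR-27a (0.859), of which only miR-582-3p was past the threshold. Most like miR-215 were miR-192 (0.852), miR-130a (0.844), miR-1196 (0.824), miR-15a (0.815) and miR-21 (0.809), none past it.

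The 5 pairs past the threshold did not all keep that call when arrays were left out or the processing was changed. Of 12 fits that each left out 1 array, miR-192 with miR-207 stayed past it in 5 and with miR-21 in 3. With miR-29a it did so in 1 and with miR-29b in 1, and miR-194 with miR-582-3p in 3. In these fits 0% to 1.74% of all pairs were past the threshold, with 0% without vehicle 1 and without BaP 5. In that order r ran from 0.922 to 0.961, 0.885 to 0.964, 0.872 to 0.945, 0.816 to 0.927 and 0.919 to 0.956. These fits had fewer arrays, and they and the other settings had 20000 permutations, against 100000 for the values as reported. A lost call thus need not mean a lower r. Without vehicle 1, r of miR-192 with miR-21 was 0.964, with an adjusted permutation p of 0.0532. Of 14 other settings, the calls held in 7, 7, 6, 2 and 8, in the same order. Among these were median centring and no normalization, where 73.8% and 82.5% of all pairs passed. So was the liver channel at its 75th percentile, where 29.3% passed and the median r of all pairs was 0.440. The liver channel with quantiles and the fit without scan day 1, where 0% passed, were also among them. In the liver channel at its 75th percentile, r with miR-192 was 0.202 for miR-207, 0.932 for miR-21, 0.913 for miR-29a and 0.268 for miR-29b, and r of miR-194 with miR-582-3p was 0.844. With quantiles these were 0.740, 0.722, 0.725, 0.0724 and 0.719, none past the threshold. Other members were not the nearest in most orders. Among 211 miRNAs, miR-194 was the 38th most like miR-192 and miR-215 the 9th. For miR-194, miR-192 was the 48th and miR-215 the 59th. For miR-215, miR-192 was the 1st and miR-194 the 45th. With the hepatocyte miRNA miR-122, r was 0.421 for miR-192, 0.142 for miR-194 and 0.306 for miR-215.

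Markers of other cell types were read beside these relations. miR-451, of red blood cells, was among the 5 most like miR-194, and r fell to 0.308 with scan day removed. The summed liver intensity of the erythroid list, miR-451 and miR-144, was 1439 to 7191 on vehicle and 1161 to 4353 on BaP arrays. For the leukocyte list, miR-142-3p, miR-223 and miR-150, it was 183 to 571 and 141 to 288. The 4 mesenchymal markers summed to 358 to 964 and 333 to 947, and the endothelial miR-126-3p gave 1269 to 3286 and 1187 to 2430. All 3 leukocyte, both erythroid and the endothelial markers were lower and all 4 mesenchymal ones higher in BaP liver. Of these 0 were past an adjusted p of 0.05, and over all 212 tested miRNAs 89 were lower and 123 higher. The differences ran from -0.28 to -0.00085 for the leukocyte and from -0.18 to -0.06 for the erythroid markers. That of the endothelial marker was -0.0063, and the mesenchymal ones ran from 0.02 to 0.18. The -0.28 was that of miR-150, whose SD was 0.75 in vehicle and 0.05 in BaP liver. The part of these markers in the relations of the members was not tested.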

How the data were processed

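MicroRNA levels were measured on 12 two-colour arrays, 1 per liver sample, 6 per group. Linear spot intensities were deposited, without normalization for the mean and background columns. The submitters' processing notes name Agilent Feature Extraction 9.5.3.1 for their extraction. The series' value table, deposited by the authors as a score of unstated scale, centring and direction, has 0 values for the 3 members and was not used.

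Here, background was corrected with normexp (offset 50) and the log2 ratio of liver over reference was fitted by loess within each array in limma 3.58.1 (R 4.3.3). Control spots and spots flagged as outliers had weight 0. A probe's 4 spots were averaged without flagged ones, unless all were flagged. A probe was above background where at least 3 spots exceeded the median of 28 negative controls by 2.6 scaled median absolute deviations. The tested set, 212 mouse miRNAs, had to pass this in liver on 3 or more arrays of either group, and was fitted by lmFit and eBayes with Benjamini-Hochberg adjustment. The fit was tested on simulated data with independent errors, which leave out the scan days that arrays shared. Single values had a two-sided exact permutation test. Correlations were permuted within groups, 100000 times (20000 for alternatives). The miRNAs named are the 3 members, the 5 most like each, the lists in the text and probes for other species or strands. Other miRNAs, named as neighbours in rank, and miR-34c* were chosen after their values were seen. Members and lists were chosen with earlier results of these data known. Sequences and coordinates are RefSeq's (GRCm38.p6). The number of arrays limits the precision, and p-values measure the spread between samples, which the labels do not tie to named animals.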

Additional observations from a re-analysis of the deposited data

How the results depend on the processing

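Replicate numbers used here only name arrays. The numbers in the sample titles differ between all samples, but their last digits recur in both groups, and 5 of the 6 pairs of equal digits were scanned on the same day. The deviations of paired arrays from their group means correlated over the 212 miRNAs at -0.0822 to 0.716, with 4 of 6 pairs over 0.1. The median r was 0.278 within these pairs and -0.0531 between the other vehicle and BaP arrays. No label says that digits mark pairs, and pairing was not told apart from scan day. With the digit as a replicate block, chosen after the data were seen, the differences were -0.03, -0.0035 and 0.0609 (limma adjusted p 0.962, 0.986 and 0.948) and 0 miRNAs passed. No miRNA passed an adjusted p of 0.05 under any of the 14 alternatives with a fit, the 12 fits without 1 array, the fit without scan day 1 or that block, beside 2 at an unadjusted p under 0.05 as reported. The difference for miR-194, -0.0035 as reported, was above 0 without background correction (0.0029), with the software's processed signals (0.0568), median centring (0.12), no normalization (0.0189), loess on mouse probes above background (0.0012), the liver channel at its 75th percentile (0.18) or quantile normalized (0.17), flagged spots kept (0.0046) and the median over spots (0.0114). That of miR-192 was above 0 with processed signals (0.0084) and median centring (0.0423), and that of miR-122 below 0 with an offset of 10 (-0.0016) and quantiles (-0.10). The median over all tested miRNAs moved to 0.08 with median centring and to 0.10 with the 75th percentile. The difference of miR-194 minus miR-215 was above 0 in the liver channel (0.0286 and 0.16). The cause of these changes was not tested.

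Vehicle and BaP ratios moved by more than 1 SD with an offset of 10 (miR-192 vehicle 3.16, miR-194 vehicle 2.86, miR-215 -0.39 and -0.28), processed signals (miR-192 2.48 and 2.48, miR-215 -0.57 and -0.39), median centring (2.16 and 2.20, 1.77 and 1.89, -0.68 and -0.56), no normalization (2.02 and 1.96, 1.63 and 1.65, -0.83 and -0.80) and loess on mouse probes above background (3.48 and 3.40, 2.96 and 2.96, -0.32 and -0.21).

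The correlation of miR-192 and miR-194 was below 0 in the liver channel (-0.434 and, with quantiles, -0.636) and the reference channel (-0.487). That of miR-192 and miR-215 was below 0 with processed signals (-0.0505), and that of miR-194 and miR-215 with processed signals (-0.539), the 75th percentile (-0.382) and the reference channel (-0.345). The 3 pairs passed the adjusted threshold with median centring (0.866, 0.915 and 0.876) and without normalization (0.890, 0.959 and 0.911), where 82.5% of all pairs passed. Of the other named pairs, r turned below 0 for miR-215 with miR-130a with processed signals (-0.0271), with miR-15a with processed signals, the liver channel, quantiles and the reference channel (-0.354, -0.375, -0.0557 and -0.348), with miR-21 under loess on mouse probes (-0.0645) and with miR-1196 under quantiles (-0.531). It did so for miR-192 with miR-15a (quantiles -0.375, reference -0.298) and miR-29b (reference -0.445), and for miR-194 with miR-451 (reference -0.0757).

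Leaving out 1 array at a time, the differences ran from -0.13 to 0.0756 for miR-192, from -0.0854 to 0.0679 for miR-194 and from 0.04 to 0.08 for miR-215, which ran from 0.02 to 0.19 over the ways of processing. Those of miR-192 minus miR-194 ran from -0.10 to 0.0454, of miR-192 minus miR-215 from -0.17 to -0.00051 and of miR-194 minus miR-215 from -0.13 to -0.0036. The correlations ran from 0.476 to 0.782, from 0.769 to 0.899 and from 0.341 to 0.723. With only probes above background on all 12 arrays, miR-215 had no value. The alternative on the series' value table was not run, because it held 0 values for the 3 members. Where liver signal is near background, as for miR-215, small differences were not detectable.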
